A study of Mus musculus with 23 samples.

Results

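The 10 genes described here, Id4, Gfra1, Ret, Etv5, Bcl6b, Zbtb16, Nanos2, Lhx1, Eomes and Utf1, are markers and regulators of the spermatogonial stem cell of the mouse testis. They were chosen by name: each is a gene whose symbol in the platform annotation is one of the 10, and no measured value entered the choice. They are 10 of 19661 genes named on the array, each read by 1 probe set, and they lie on chromosome 13 (Id4), 19 (Gfra1), 6 (Ret), 16 (Etv5), 11 (Bcl6b and Lhx1), 9 (Zbtb16 and Eomes) and 7 (Nanos2 and Utf1). Of the 10, 8 were bright enough to be tested, and Nanos2 and Eomes fell below the filter on dim genes, a mean log2 level of 5.12 over all arrays.

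RNA came from spermatogenic cells isolated from testes of mice aged 14.5 days, with 4 testes pooled for each array, and was hybridised to Affymetrix Mouse Gene 1.0 ST arrays, 23 in all. Some markers of somatic testis cells were bright as well, as given below. The study set male offspring of crosses between mouse subspecies beside crosses within a subspecies and the parental strains. PWD is an inbred strain of Mus musculus musculus and PWK another of the same subspecies, while C57BL/6 (B6) and BALB/C are laboratory strains of mainly domesticus ancestry. The 7 genotypes, all without a transgene or a treatment, were the inter-subspecific hybrids PWDxB6 (3 arrays) and B6xPWD (3), the musculus F1 PWDxPWK (2, after the authors left out an array that stood apart), the laboratory F1s B6xBALB/C (6) and BALB/CxB6 (3), and the inbred PWD (3) and B6 (3). By convention the mother's strain is named first. PWDxB6 males are known for an arrest of meiosis and sterility, and males of the reciprocal cross are not sterile in this way. Whether different pools drew on different litters is not in the labels, and the p-values therefore describe differences among these pools only.

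A small fraction of undifferentiated spermatogonia keeps spermatogenesis going by renewing itself. Sertoli cells, the somatic nurse cells of the tubule, secrete the growth factor GDNF, which binds the surface co-receptor GFRA1 and signals through the tyrosine kinase RET. That signal raises the transcription factors ETV5, BCL6B and LHX1 and holds the cells in self-renewal, and FGF from the niche feeds the same targets. ID4, which blocks basic helix-loop-helix factors, the zinc-finger repressor ZBTB16 (PLZF), the RNA-binding protein NANOS2, the T-box factor EOMES and the chromatin factor UTF1 mark or maintain subsets of these cells.

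Basic helix-loop-helix factors, whose partners ID4 captures, bind the letters CANNTG, so 3 promoter windows are shown for where these letters lie: that of Gfra1, which had most of them among the genes matched, that of Etv5, a target of the receptor, and that of Utf1, which had none and whose level differed most among genotypes of the 10 genes. They are RefSeq sequences of GRCm38.p6, the B6 genome, from 250 bases before to 50 bases after a transcript start, on the strand of the gene. Capitals mark CANNTG, which reads the same on both strands. The windows are chr19:58455349-58455648 on the minus strand (Gfra1), chr16:22439521-22439820 on the minus strand (Etv5) and chr7:139943606-139943905 on the plus strand (Utf1).
Gfra1: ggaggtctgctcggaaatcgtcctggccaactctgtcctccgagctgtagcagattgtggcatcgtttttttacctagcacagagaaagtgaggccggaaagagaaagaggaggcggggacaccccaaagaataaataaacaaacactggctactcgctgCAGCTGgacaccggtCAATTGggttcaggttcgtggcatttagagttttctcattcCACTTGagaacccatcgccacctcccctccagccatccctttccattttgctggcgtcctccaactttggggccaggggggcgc
Etv5: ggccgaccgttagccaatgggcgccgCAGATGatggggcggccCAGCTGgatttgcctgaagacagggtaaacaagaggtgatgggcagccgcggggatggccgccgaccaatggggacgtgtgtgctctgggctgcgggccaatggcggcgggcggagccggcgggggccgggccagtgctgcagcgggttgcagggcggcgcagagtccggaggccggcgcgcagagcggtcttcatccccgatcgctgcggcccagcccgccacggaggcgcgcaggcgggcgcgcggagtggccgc
Utf1: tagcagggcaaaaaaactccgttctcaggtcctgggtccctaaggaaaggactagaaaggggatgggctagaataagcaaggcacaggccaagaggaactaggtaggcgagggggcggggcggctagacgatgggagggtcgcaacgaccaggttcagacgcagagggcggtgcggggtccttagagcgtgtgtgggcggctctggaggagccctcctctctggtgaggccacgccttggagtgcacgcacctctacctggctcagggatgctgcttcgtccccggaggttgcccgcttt
The Gfra1 window holds CAGCTG at position -90 from the start, CAATTG at position -75 and CACTTG at position -34, and the Etv5 window holds CAGATG at position -224 and CAGCTG at position -207. Windows were matched for 7 of the 10 genes, 8 windows in all since Etv5 has 2 starts, and the windows of Id4, Lhx1, Nanos2, Eomes, Utf1 and the other Etv5 start hold no CANNTG. Ret, Bcl6b and Zbtb16 were not matched. Among 32851 windows of the same length, 72.3% hold CANNTG and 17.6% hold 3 or more. The ETS-factor letters CCGGAAGT, searched on both strands for ETV5, were in none of the 8 windows and in 3.9% of all windows. A match of letters is a description of the sequence.

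Over the 7 genotypes, 5 of the 8 tested genes differed by limma's moderated F-test: Ret (adjusted p = 1.21e-05), Utf1 (4.11e-05), Zbtb16 (0.0221), Id4 (0.0224) and Lhx1 (0.0297). By the same test 33.8% of all 14746 genes tested differed. Gfra1 (adjusted p = 0.0814), Etv5 (0.166) and Bcl6b (0.616) did not pass. Between the largest and the smallest genotype mean, Utf1 spanned 1.13 and Ret 0.95 on the log2 scale, against a median of 0.39 over all genes tested, and Bcl6b spanned 0.19.

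**Figure D1:**
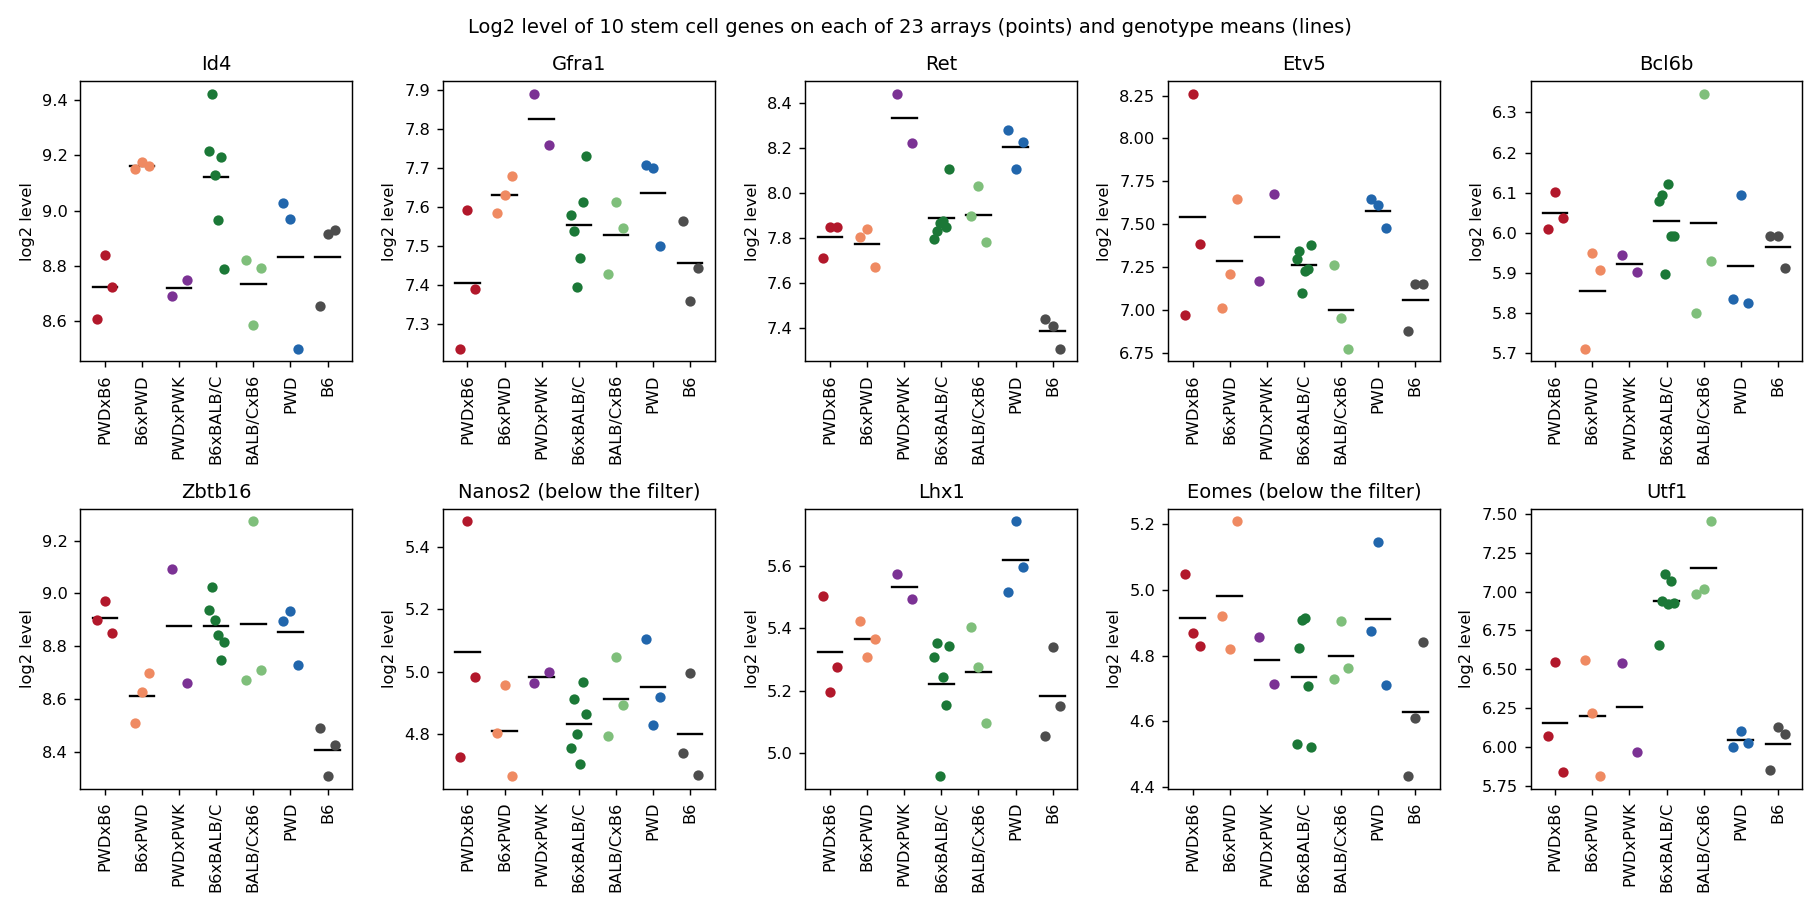
Log2 level (y axis, own scale for each gene) of the 10 genes on each of 23 arrays (points) by genotype (x axis), with the genotype mean as a line. Ret is lowest in the 3 B6 arrays, at 7.31 to 7.44, and Utf1 is highest in the 9 arrays of the laboratory F1s, at 6.66 to 7.45.

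The design gives 7 comparisons, and 1 more, the laboratory F1s against B6, was added after the values had been seen. Between the parents, PWD minus B6, 3 of 8 genes were higher and 0 lower, where 18.4% of all genes tested were called (10.4% higher and 8.04% lower). For the mean of the musculus genotypes (PWDxPWK and PWD) minus the mean of the domesticus genotypes (B6xBALB/C, BALB/CxB6 and B6), 4 were higher and 1 lower, where 28.7% of all genes were called (15.9% higher and 12.7% lower). These comparisons share the PWD and B6 arrays. For the laboratory F1s minus B6, 3 were higher and 0 lower, where 4.51% of all genes were called (2.46% higher and 2.05% lower).

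No stem cell gene passed limma's test in the other 5 comparisons. The share of all genes called was 2.83% for PWDxB6 minus B6xPWD (1.33% higher and 1.51% lower) and 0.671% for PWDxB6 minus the mean of its parents (0.509% higher and 0.163% lower). It was 14.5% for B6xPWD minus the mean of its parents (7.79% higher and 6.69% lower). It was 0.00678% for PWDxPWK minus PWD, all higher, and 0.441% for B6xBALB/C minus BALB/CxB6 (0.359% higher and 0.0814% lower). At an unadjusted p under 0.05, 3 of the 8 genes passed for PWDxB6 minus B6xPWD, 1 for each hybrid minus its mid-parent, 1 for B6xBALB/C minus BALB/CxB6 and 0 for PWDxPWK minus PWD. Of all 14746 genes, 3112 passed at that threshold between the hybrids, 1764 for PWDxB6 and 4664 for B6xPWD minus mid-parent. For B6xBALB/C minus BALB/CxB6 2095 did so, and for PWDxPWK minus PWD 419. The median difference of the 8 genes was 0.31 for PWD minus B6, where all genes tested had 0.04, and -0.0047 for PWDxB6 minus B6xPWD, where all genes had 0.03. For the laboratory F1s minus B6 all 8 differences were positive, with a median of 0.09 against 0.0051 over all genes.

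**Figure D2:**
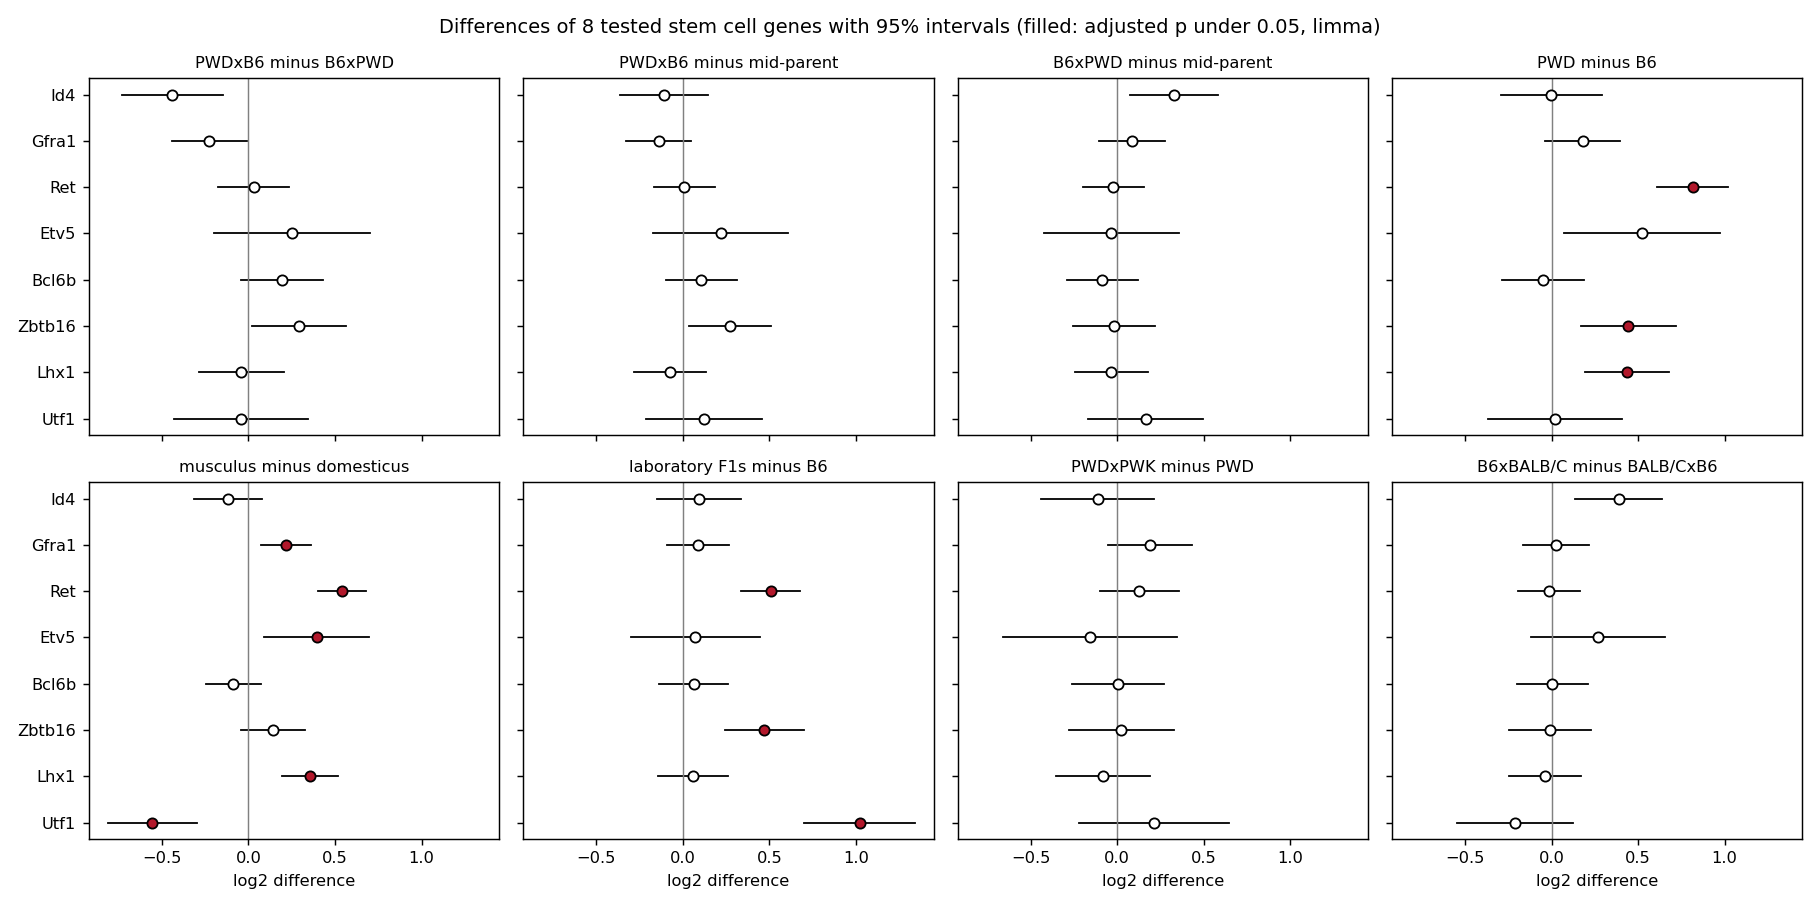
Log2 difference (x axis) of the 8 tested genes (y axis) in 8 comparisons, with 95% intervals from limma; filled points passed at an adjusted p under 0.05. Filled points appear in 3 panels, for Ret, Zbtb16 and Lhx1 in PWD minus B6, for Gfra1, Ret, Etv5, Lhx1 and Utf1 in musculus minus domesticus, and for Ret, Zbtb16 and Utf1 in laboratory F1s minus B6.

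Gdnf, the ligand that Sertoli cells supply, was higher in the musculus genotypes by 0.25 (SE 0.0834, adjusted p = 0.0270 by limma), with means of 7.35 in musculus and 7.10 in domesticus. It did not pass between PWD and B6, where the difference was 0.09 (adjusted p = 0.666). B6 averaged 7.26, nearer to PWD at 7.35 than to the laboratory F1s, at 7.06 in B6xBALB/C and 6.97 in BALB/CxB6. Over the 7 genotypes Gdnf did not pass limma's moderated F-test (adjusted p = 0.0639).

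Ret, the signalling kinase of the GDNF receptor, separated the genotypes most clearly relative to the spread of its arrays. It stood at 8.28, 8.10 and 8.22 in PWD pools, against 7.44, 7.41 and 7.31 in B6 pools. The groups did not overlap, and Ret was higher in PWD by 0.82 (SE 0.0989, adjusted p = 3.36e-06, limma), which is 1.76-fold (95% interval of the log2 difference 0.61 to 1.02). Here and below, the share of all genes whose arrays do not overlap between genotypes was not counted. The hybrids lay between the parents. PWDxB6 pools read 7.71, 7.85 and 7.85 and B6xPWD pools 7.80, 7.84 and 7.67, against a mid-parent value of 7.79. Neither hybrid differed from that value by the test: PWDxB6 minus mid-parent was 0.01 (interval -0.17 to 0.19) and B6xPWD minus mid-parent was -0.02 (interval -0.20 to 0.16). PWDxB6 minus B6xPWD was 0.03 (interval -0.17 to 0.24).

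Ret was highest in PWDxPWK, at 8.44 and 8.22, and B6 stood apart from every other genotype. The laboratory F1s read 7.79 to 8.10 in B6xBALB/C (median 7.86) and 7.89, 8.03 and 7.78 in BALB/CxB6. All 9 of their arrays lay above all 3 B6 arrays, and the difference was 0.51 (SE 0.0820, adjusted p = 0.00139, limma). For musculus minus domesticus Ret was higher by 0.54 (SE 0.0665, adjusted p = 1.62e-06), and 4 of the 5 musculus arrays lay above all 12 domesticus arrays. In the order of the 7 means (PWDxPWK, PWD, BALB/CxB6, B6xBALB/C, PWDxB6, B6xPWD, B6), the ranges of neighbours were apart only between PWD and BALB/CxB6 and between B6xPWD and B6.

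Gfra1, the co-receptor that binds GDNF, moved over a narrower range. It stood at 7.89 and 7.76 in PWDxPWK and at 7.71, 7.70 and 7.50 in PWD, and both PWDxPWK arrays lay above all PWD arrays (difference 0.19, adjusted p = 0.9997). In domesticus, B6xBALB/C pools ranged from 7.39 to 7.73 with a median of 7.56, BALB/CxB6 pools read 7.43, 7.61 and 7.55, and B6 pools 7.56, 7.36 and 7.44. Gfra1 was higher in musculus by 0.22 (SE 0.0705, adjusted p = 0.0237, limma), with overlap of the arrays. That call was lost without PWD replicate 1 (adjusted p = 0.0629), PWD replicate 2 (0.0612) or PWDxPWK replicate 1 (0.131).

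Between the reciprocal hybrids Gfra1 read 7.24, 7.59 and 7.39 in PWDxB6, against 7.59, 7.63 and 7.68 in B6xPWD. PWDxB6 replicate 2 reached the B6xPWD range and the other two lay below it. The difference of -0.23 had an interval of -0.44 to -0.01 and an adjusted p of 0.221. Both parts of the receptor were thus measured, but Ret alone passed between PWD and B6: Gfra1 differed there by 0.18 (interval -0.04 to 0.40, adjusted p = 0.253).

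Of 15 GDNF receptor signalling genes tested, 4 rose and 0 fell in PWD relative to B6, where 18.4% of all genes were called. They were the kinases Src (0.40, adjusted p = 0.0101, limma), Akt1 (0.31, 0.0434), Akt2 (0.30, 0.0209) and Map2k1 (0.32, 0.0208). For musculus minus domesticus 7 rose and 2 fell, where 28.7% of all genes were called. Akt2 was higher there by 0.36 (adjusted p = 7.33e-05), Src by 0.32 (0.00144) and Ptpn11, a phosphatase that passes receptor signals on to RAS, by 0.30 (0.00369), while the kinase Yes1 fell by 0.38 (1.60e-04) and the exchange factor Sos2 fell by 0.35 (0.0131). These kinases are used by many receptors and cell types, so the list does not measure RET signalling itself.

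Between the hybrids 2 of the 15 signalling genes rose and 0 fell in PWDxB6 relative to B6xPWD: Akt1 by 0.40 (adjusted p = 0.0455) and Akt2 by 0.44 (0.0114, limma). Of all genes tested, 2.83% were called between the hybrids, 1.33% higher and 1.51% lower. In B6xPWD relative to its mid-parent 1 rose, Yes1 by 0.27 (0.0398), and 4 fell, with Akt2 at -0.44 (0.00174), Fyn at -0.37 (0.0165), Ptpn11 at -0.31 (0.0341) and Sos1 at -0.41 (0.0389), where 14.5% of all genes were called. In B6xPWD 4 of 13 Sertoli markers, 4 of 10 peritubular and stromal markers and 5 of 7 endothelial markers fell relative to the mid-parent as well, and their part in the signalling genes' result was not tested. The Sertoli marker mean was 9.42 to 9.51 in B6xPWD arrays, against 9.57 to 9.71 in PWD and 9.75 to 9.83 in B6 arrays.

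Etv5, the ETS factor that GDNF and FGF signalling raise, was the most variable of the 8 genes within genotypes, with a residual SD of 0.30 against a median of 0.16 over all genes tested. PWDxB6 pools read 6.97, 8.26 and 7.39, so that this genotype held the highest value of the series and one of the lowest. B6xPWD pools read 7.01, 7.21 and 7.64. PWD pools read 7.65, 7.61 and 7.48, against 6.88, 7.15 and 7.15 in B6 pools. The parents did not overlap, but the difference of 0.52 (SE 0.217) had an adjusted p of 0.101.

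Etv5 was higher in musculus by 0.39 (SE 0.146, adjusted p = 0.0460, limma). This call was among the least steady: it was lost in 18 of 28 alternative settings, and without PWDxPWK replicate 2 the difference was 0.27 (adjusted p = 0.284). PWDxPWK read 7.17 and 7.68, BALB/CxB6 7.26, 6.95 and 6.77, and B6xBALB/C 7.10 to 7.38 with a median of 7.27. The PWDxB6 pool with 8.26 also had the highest Nanos2 value, 5.48. Its ranks among the 23 arrays were 2 for Spry2, 4 for Spry4 and 5 for both Dusp6 and Etv4, which are other targets of FGF and GDNF signalling, 6 for Mycn, 8 for Egr2, 11 for both Egr3 and Pou3f1, 14 for Cxcr4 and 16 for Tspan8. The ranks of these 10 response genes thus ran from 2 to 16, and Gdnf ranked 22. The array was picked for its Etv5 value, and how all genes ranked on it was not examined.

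Bcl6b, a repressor induced by GDNF, differed least. It read 6.01, 6.10 and 6.04 in PWDxB6, against 5.71, 5.95 and 5.91 in B6xPWD, which did not overlap. The difference was 0.19 with an interval of -0.04 to 0.43 (adjusted p = 0.330, limma). BALB/CxB6 replicate 2 had the highest value, 6.35, and the other arrays outside the hybrids lay within 5.80 to 6.12. In the other 7 comparisons its difference lay between -0.09 (musculus minus domesticus and B6xPWD minus mid-parent) and 0.11 (PWDxB6 minus mid-parent), and none passed. In the laboratory F1s minus B6 Bcl6b differed by 0.06 (interval -0.14 to 0.26), Gfra1 by 0.09 (-0.09 to 0.27), Etv5 by 0.07 (-0.30 to 0.44) and Lhx1 by 0.06 (-0.14 to 0.26), none past the threshold.

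Lhx1, a LIM homeobox factor induced by GDNF, was higher in musculus. PWD pools read 5.51, 5.74 and 5.60 and PWDxPWK pools 5.57 and 5.49. In domesticus, B6xBALB/C pools ranged from 4.93 to 5.35 (median 5.27), BALB/CxB6 pools read 5.40, 5.28 and 5.10, and B6 pools 5.06, 5.34 and 5.15. All 5 musculus arrays lay above all 12 domesticus arrays, with a difference of 0.35 (SE 0.0788, adjusted p = 0.00162, limma). For PWD minus B6 the difference was 0.43 (SE 0.117, adjusted p = 0.0120), and it was lost without PWD replicate 2 (0.0671) or B6 replicate 1 (0.0597). The hybrid means lay between the parents, with arrays at 5.50, 5.20 and 5.28 in PWDxB6 and 5.42, 5.31 and 5.37 in B6xPWD. Its mean over all arrays, 5.33, lay just above the filter on dim genes.

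Of 9 other GDNF and FGF response genes tested, 2 rose and 0 fell in PWD relative to B6, near the 18.4% of all genes called: Spry4, a feedback inhibitor of receptor kinases, by 0.49 (adjusted p = 0.0131) and Pou3f1, a POU factor induced by GDNF, by 0.32 (0.0360, limma). In the musculus genotypes 2 of the 9 rose and 0 fell relative to domesticus, where 28.7% of all genes were called: Spry4 (0.24, 0.0485, limma) and Mycn (0.26, 0.0103). In B6xPWD relative to its mid-parent 0 of the 9 rose and 1 fell, where 14.5% of all genes were called. It was Egr3, an early growth response factor (difference -0.53, adjusted p = 0.0201, limma).

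Id4 had a pattern unlike that of Ret. It was lower in PWDxB6, at 8.61, 8.84 and 8.72, against 9.15, 9.18 and 9.16 in B6xPWD. The hybrids did not overlap, and the difference was -0.44 (SE 0.141, interval -0.73 to -0.15), which is 0.737-fold and did not pass at an adjusted p of 0.0848 (limma). B6xPWD lay above its mid-parent by 0.33 (interval 0.08 to 0.58, adjusted p = 0.0701), and PWDxB6 lay at -0.11 (interval -0.36 to 0.14, adjusted p = 0.776). The parents were level, at 9.03, 8.97 and 8.50 in PWD and 8.65, 8.91 and 8.93 in B6, with a difference of -0.0008 (interval -0.29 to 0.29).

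The reciprocal laboratory F1s, crosses not known for sterility, were also compared for Id4, which did not pass. B6xBALB/C pools ranged from 8.79 to 9.42 (median 9.16), against 8.82, 8.59 and 8.79 in BALB/CxB6. In B6xBALB/C 5 of 6 arrays lay above all BALB/CxB6 arrays, with a difference of 0.39 (SE 0.122, adjusted p = 0.116, limma). Without B6xBALB/C replicate 6 the difference was 0.45 and passed (adjusted p = 0.0147, limma), with 1011 genes called in all. B6xBALB/C replicates 1 to 3 read 9.22, 9.42 and 9.13, and replicates 4 to 6 read 8.97, 9.19 and 8.79. With replicates 1 to 3 alone, 1275 genes were called in this comparison, Id4 among them. With replicates 4 to 6 alone, 0 genes were called. PWDxPWK read 8.69 and 8.75. In the order of the 7 means, B6xPWD and B6xBALB/C came first and PWDxB6 and PWDxPWK last, and no neighbours were apart in range.

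Spermatocyte genes moved with Id4. Their mean over 17 genes ran from 8.17 to 8.40 in PWDxB6, against 8.60 to 8.81 in B6xPWD, and from 7.94 to 9.13 in B6xBALB/C, against 8.30 to 8.45 in BALB/CxB6. For PWDxB6 minus B6xPWD 15 of the 16 spermatocyte genes tested had a negative difference, though 0 passed (median -0.17, all genes 0.03). At an unadjusted p under 0.05 were 4 of the 16, against 3112 of all 14746 genes. The part of the spermatocyte genes in the Id4 result was not tested. In bulk RNA, fewer cells of a type and less RNA per cell cannot be told apart.

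Zbtb16, the repressor also known as PLZF and present through the undifferentiated spermatogonia, was lowest in B6. PWD pools read 8.90, 8.93 and 8.73, against 8.49, 8.31 and 8.43 in B6 pools, without overlap. The difference was 0.44 (SE 0.132, adjusted p = 0.0215, limma), and it was lost without PWD replicate 1 (0.0701), PWD replicate 2 (0.0831) or B6 replicate 2 (0.0747). The laboratory F1s were higher than B6 by 0.47 (SE 0.110, adjusted p = 0.0183), with B6xBALB/C at 8.75 to 9.02 (median 8.87), BALB/CxB6 at 8.67, 9.27 and 8.71, and all 9 arrays above all B6 arrays. That call was lost without B6 replicate 1 (adjusted p = 0.0515) or B6 replicate 2 (0.0941).

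The hybrids split on Zbtb16. PWDxB6 read 8.90, 8.97 and 8.85, against 8.51, 8.63 and 8.70 in B6xPWD, and the groups did not overlap. The difference of 0.29 (interval 0.02 to 0.57) had an adjusted p of 0.207. Id4 and Zbtb16 thus lay on opposite sides in the reciprocal hybrids, neither past the threshold.

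Utf1, a chromatin factor of early germ cells, set the laboratory F1s apart. B6xBALB/C pools ranged from 6.66 to 7.11 (median 6.93) and BALB/CxB6 pools read 6.98, 7.02 and 7.45, against 5.85, 6.13 and 6.08 in B6. The difference was 1.02 (SE 0.155, adjusted p = 7.40e-04, limma), which is 2.03-fold (95% interval of the log2 difference 0.70 to 1.34). All 9 F1 arrays lay above the other 14, whose highest value was 6.56.

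PWD pools read 6.00, 6.10 and 6.02 for Utf1, so the parents PWD and B6 differed by 0.02 (interval -0.37 to 0.41). PWDxPWK read 6.54 and 5.97, PWDxB6 6.07, 6.55 and 5.84, and B6xPWD 6.56, 6.22 and 5.81. These 3 crosses reached higher than either inbred strain on single arrays, but their ranges overlapped those of the parents. Utf1 was lower in musculus than in domesticus, at -0.55 (SE 0.125, adjusted p = 0.00182), and the domesticus mean is made of genotypes that themselves differ, as the laboratory F1s and B6 show. BALB/C mice were not among the samples, so whether the level belongs to that strain or to its F1s cannot be told apart. Set against the 3 intra-subspecific F1 genotypes in place of the parents, Utf1 was lower in both hybrids. The differences were -0.63 in PWDxB6 (adjusted p = 0.0406, limma) and -0.58 in B6xPWD (0.0425), where against the mid-parent they were 0.12 and 0.16. Of those 3 genotypes, B6xBALB/C and BALB/CxB6 had Utf1 means of 6.94 and 7.15, and PWDxPWK had 6.26. The hybrid means, 6.15 in PWDxB6 and 6.20 in B6xPWD, were near that of PWDxPWK and below those of the laboratory F1s.

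Nanos2 and Eomes, which mark the most primitive of the undifferentiated spermatogonia, were dim, at mean log2 levels of 4.89 and 4.81, below the filter at 5.12. Nanos2 read 4.73, 5.48 and 4.98 in PWDxB6, against 4.80, 4.96 and 4.66 in B6xPWD, and 5.11, 4.83 and 4.92 in PWD, against 4.74, 4.99 and 4.67 in B6. It read 4.97 and 5.00 in PWDxPWK, 4.70 to 4.97 in B6xBALB/C and 4.80, 5.05 and 4.89 in BALB/CxB6. The hybrids overlapped, and so did the parents. Eomes read 5.05, 4.87 and 4.83 in PWDxB6, against 4.92, 4.82 and 5.21 in B6xPWD, and 4.88, 5.15 and 4.71 in PWD, against 4.43, 4.61 and 4.84 in B6. With the dim genes let in, the F-test gave adjusted p-values of 0.569 for Nanos2 and 0.300 for Eomes (limma), and no comparison passed. Between the hybrids Nanos2 differed by 0.26 (adjusted p = 0.335) and Eomes by -0.07 (0.821), and between PWD and B6 they differed by 0.15 (0.558) and 0.28 (0.199). In the other 6 comparisons the differences ran from -0.08 to 0.19 for Nanos2 and from -0.13 to 0.21 for Eomes.

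Among 25 other genes of undifferentiated spermatogonia, 4 rose and 0 fell in PWD relative to B6, where 18.4% of all genes were called, a share close to that of the 25. They were Cd9, a surface tetraspanin used to enrich stem cells (0.58, adjusted p = 0.0176), Erbb3, a receptor for neuregulin (0.50, 0.0176), Magea4 (0.38, 0.0361) and Lin28a, an inhibitor of let-7 processing (0.37, 0.0293, limma). In the laboratory F1s relative to B6, 2 of the 25 rose and 1 fell, where 4.51% of all genes were called. Magea4 (0.43, 0.0220, limma) and Lin28a (0.37, 0.0287) rose and Shisa6, a marker of GFRA1-positive cells, fell by 0.58 (0.0285). Magea4, an X-linked cancer-testis gene of spermatogonia, was the only gene of the 25 that rose in both hybrids relative to the mid-parent. It rose by 0.56 in PWDxB6 (0.0109, limma) and by 0.69 in B6xPWD (8.43e-04). In PWDxB6 1 of the 25 rose and 0 fell, where 0.671% of all genes were called. In B6xPWD 2 rose and 1 fell, where 14.5% of all genes were called. Males have the X of the mother only, so the mean of both parents is not a direct reference for an X-linked gene. The hybrids were not tested against the mother's strain here.

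Of 9 genes of differentiating spermatogonia tested, 2 rose, 1 fell and 6 did not pass in PWD relative to B6, where 18.4% of all genes were called. Stra8, which opens meiosis under retinoic acid, rose in PWD relative to B6 by 0.86 (adjusted p = 6.27e-04), Dnmt3b rose by 0.41 (0.00704) and the receptor kinase Kit fell by 0.41 (0.0444, limma). In the laboratory F1s relative to B6 Stra8 rose by 0.94, and 3 of the 9 rose and 1 fell in all, where 4.51% of all genes were called. Stra8 was also higher than the mid-parent in both hybrids, by 0.60 in PWDxB6 (0.0453) and 0.53 in B6xPWD (0.0176). In B6xPWD Sohlh2, a spermatogonial transcription factor, was higher than the mid-parent by 0.58 (0.0124, limma). Dmrtb1, which controls the entry into meiosis, was higher by 0.50 (0.0493). Of the 9, 1 was called higher and 0 lower in PWDxB6 relative to its mid-parent, where 0.671% of all genes were called. In B6xPWD 3 were called higher and 0 lower, where 14.5% of all genes were called. Differences were positive for 6 of the 9 in PWDxB6 and 5 in B6xPWD. Kit was lower in both, at -0.39 and -0.17, and did not pass.

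Macrophage markers were lower in PWD and in the laboratory F1s than in B6. Of 6 macrophage markers tested, 4 fell in PWD relative to B6 and 3 in the laboratory F1s relative to B6. Of all genes tested, 8.04% were called lower and 10.4% higher in PWD relative to B6. In the laboratory F1s relative to B6 these shares were 2.05% and 2.46%. The mean of the 7 macrophage markers on the array ran from 5.54 to 5.75 in PWD, 5.75 to 5.87 in B6xBALB/C and 5.61 to 5.76 in BALB/CxB6, against 6.03 to 6.33 in B6. Of 4 Leydig markers tested, Cyp11a1, a steroid-making enzyme, fell in both comparisons and the other 3 did not pass. The Leydig marker mean ran from 6.06 to 6.32 in PWD, 6.01 to 6.87 in B6xBALB/C and 5.95 to 6.13 in BALB/CxB6, against 6.46 to 6.77 in B6. Endothelial markers had 0 of 7 positive differences in the laboratory F1s minus B6 (median -0.45, all genes 0.0051), and Tek was called lower. At an unadjusted p under 0.05 were 6 of the 7, against 3102 of all 14746 genes. The endothelial mean ran from 5.81 to 6.23 in B6xBALB/C and 5.70 to 6.22 in BALB/CxB6, against 6.34 to 6.63 in B6. Sertoli markers had 0 of 13 positive differences there (median -0.23) and 0 called, and of 10 peritubular and stromal markers 1 was positive and Pdgfra was called lower. In PWD relative to B6 the Sertoli marker Trf fell by 0.65 (adjusted p = 0.00200) and the T cell gene Cd3e fell by 0.42 (0.0188). Of 16 spermatocyte genes, Dmc1, Sycp3 and Syce1 were called higher in the laboratory F1s than in B6 (by 0.40, 0.75 and 0.53), and Syce2 and Dmc1 in PWD than in B6 (by 0.60 and 0.32). The part of these lists in the higher Ret, Zbtb16, Lhx1 and Utf1 was not tested. S100b, a glial marker that other cells also make, was higher in PWD by 2.03 (adjusted p = 3.23e-08), while Sox10, the defining Schwann cell factor, did not pass. Of 10 lymphocyte and NK cell markers, 9 were below the filter. All 13 Sertoli markers on the array passed the filter in these preparations of spermatogenic cells. The Sertoli marker Clu and the peritubular marker Acta2 lay at percentiles 99.98 and 99.85 of mean level, so the RNA was not of germ cells alone.

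The genes did not rise and fall as a block over the 23 arrays. Of the 45 pairs among the 10 genes, 31 had a positive Pearson correlation, with a median r of 0.16, and 4 passed at a permutation p adjusted over the 45. These were Gfra1 with Ret (r = 0.62, rho = 0.51), Ret with Zbtb16 (0.61, 0.45), Ret with Lhx1 (0.57, 0.49) and Bcl6b with Zbtb16 (0.58, 0.55), each at an adjusted p of 0.0493 for r, and 0.236 for rho. The raw permutation p-values of r were 0.00179, 0.00221, 0.00438 and 0.00383. All permutation p-values here take the 23 arrays as independent and do not allow for arrays of a genotype being alike. Without the 2 arrays farthest from the median, r was 0.53, 0.47, 0.50 and 0.34. Within genotypes, as deviations from each genotype's mean, Gfra1 with Ret kept r = 0.43 and Bcl6b with Zbtb16 r = 0.73, Ret with Zbtb16 had 0.29, and Ret with Lhx1 had 0.0036. Id4 had r = -0.21 with Ret and 0.08 with Gfra1.

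Id4 and Ret had relations of opposite sign to the mean of other undifferentiated spermatogonia genes. Over the 23 arrays Id4 rose with the spermatocyte mean (r = 0.73, rho = 0.65, permutation p = 9e-05 and 0.00106, adjusted 0.0039 and 0.0459 over 130 relations), with r = 0.61 without the 2 farthest arrays and 0.55 within genotypes. It fell as the mean of 26 other undifferentiated spermatogonia genes rose (r = -0.66, rho = -0.57, p = 6.8e-04 and 0.00579, adjusted 0.011 and 0.108), with -0.55 without the 2 farthest and -0.62 within genotypes. Ret instead rose with that mean (r = 0.58, rho = 0.63, p = 0.00352 and 0.00143, adjusted 0.0458 and 0.0465), with 0.68 without the 2 farthest and 0.79 within genotypes. With the spermatocyte mean Ret had r = -0.17 (rho = -0.25, adjusted 0.694 and 0.589), and -0.54 within genotypes. All values of an array share its RNA pool and its hybridisation.

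**Figure D3:**
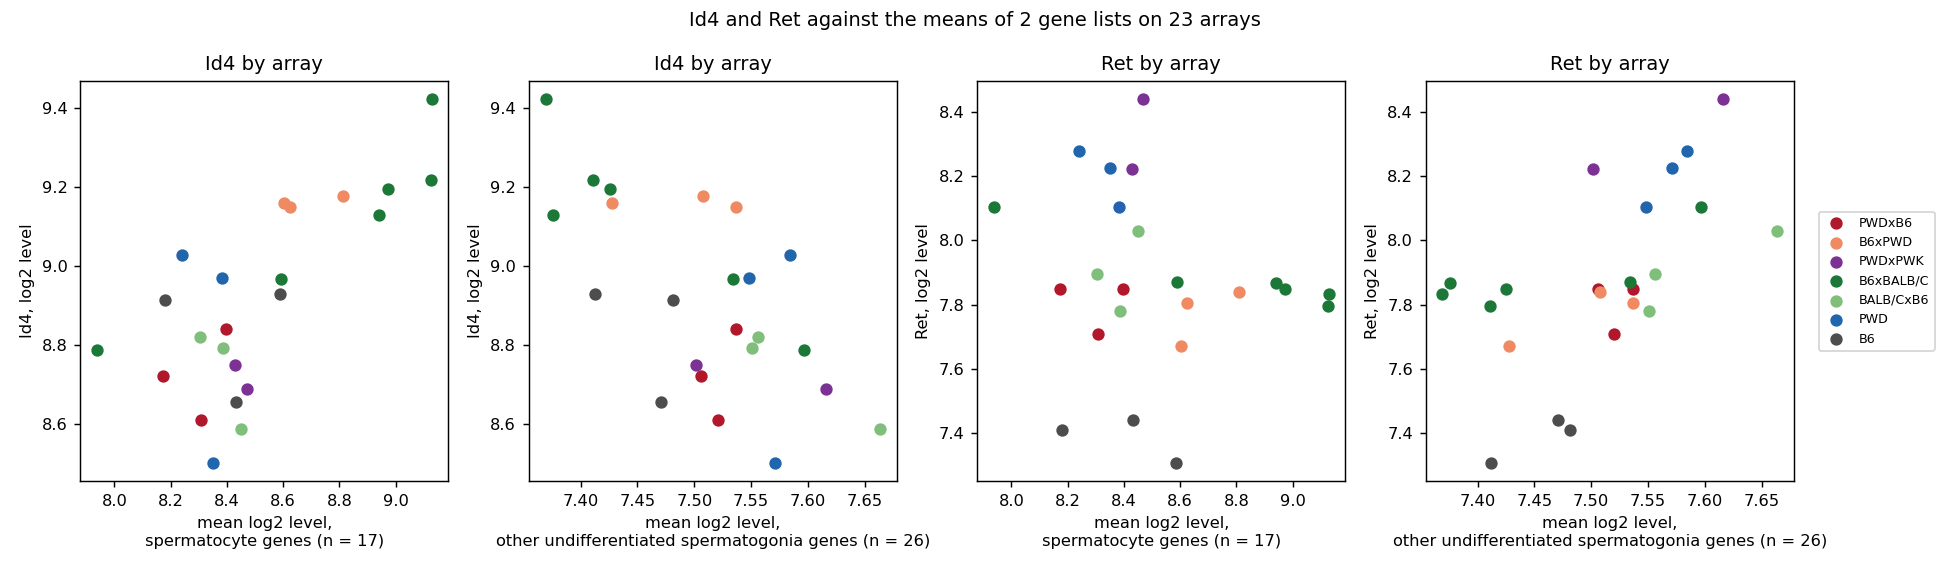
Log2 level of Id4 and of Ret (y axes) on 23 arrays against the mean log2 level (x axes) of 17 spermatocyte genes and of 26 other undifferentiated spermatogonia genes, coloured by genotype. Id4 rises with the spermatocyte mean (r = 0.73) and falls with the spermatogonia mean (r = -0.66), and Ret rises with the spermatogonia mean (r = 0.58).

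Id4 also fell as the mean of the GDNF receptor signalling genes rose (r = -0.76, rho = -0.75, permutation p = 2e-05 and 6e-05, adjusted 0.0013 and 0.0078), with -0.76 without the 2 farthest arrays and -0.57 within genotypes. Some relations lay mainly between genotypes. Ret had r = -0.66 with the macrophage mean (adjusted p = 0.011, rho = -0.50), but 0.20 within genotypes. Lhx1 had r = 0.77 with the Schwann cell mean (rho = 0.72, p = 1e-05, the smallest 100000 permutations can give, adjusted 0.0013), but 0.21 within genotypes. That mean is of 2 genes, S100b and Sox10. In musculus relative to domesticus S100b was higher by 2.02 (adjusted p = 1.48e-11, limma), and Sox10, at 0.20 (0.0777), did not pass. Zbtb16 rose with differentiating spermatogonia genes (r = 0.66, rho = 0.41, adjusted 0.011 and 0.295), with 0.66 within genotypes and 0.39 without the 2 farthest arrays. Of the 130 relations between the 10 genes and 13 lists, 10 passed for r.

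**Figure D4:**
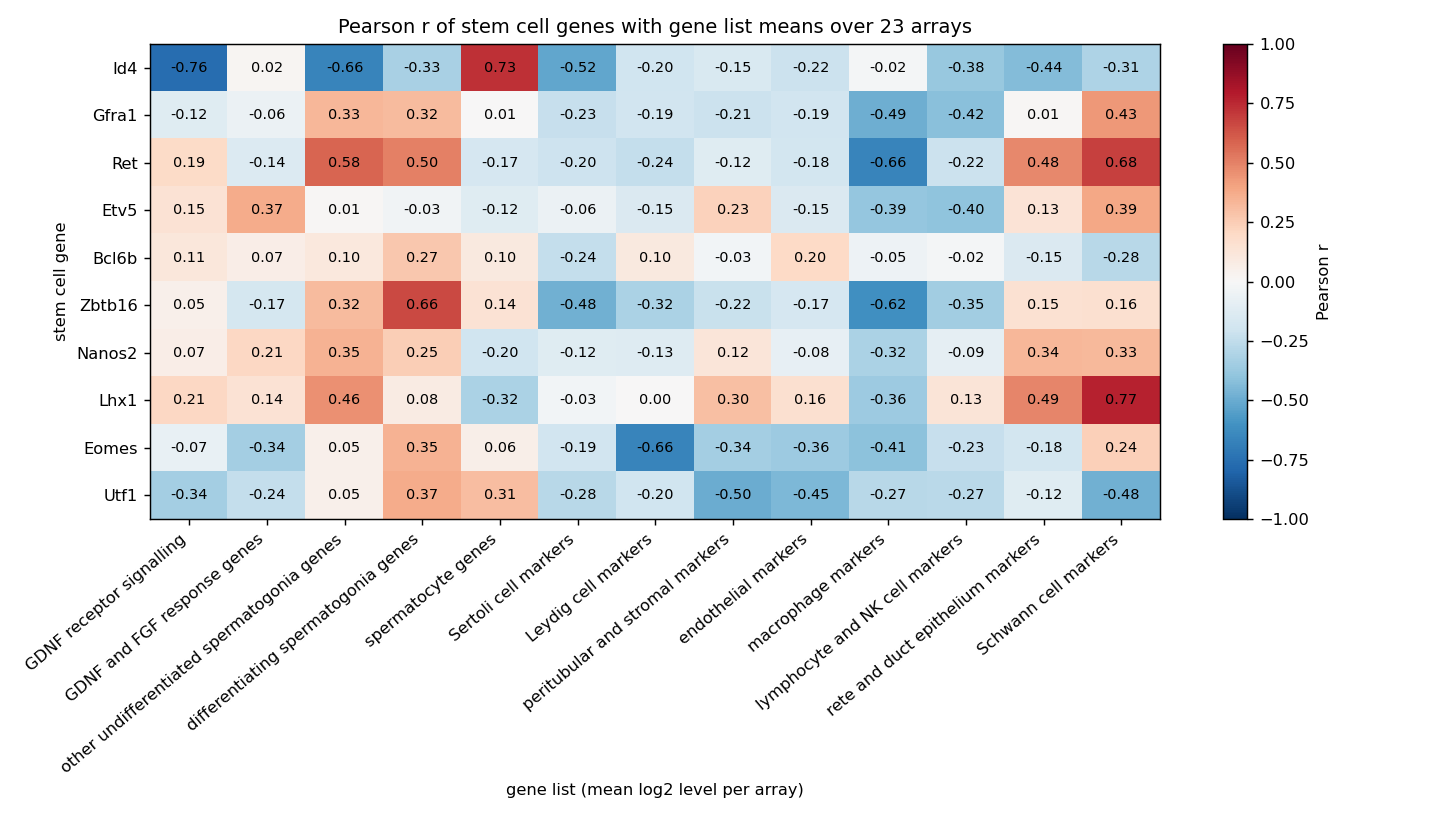
Pearson r over 23 arrays between each of the 10 genes (rows) and the mean log2 level of each of 13 gene lists (columns), on a colour scale from -1 to 1. The strongest values are 0.77 for Lhx1 with the 2 Schwann cell markers, -0.76 for Id4 with GDNF receptor signalling and 0.73 for Id4 with spermatocyte genes.

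Searched over all genes tested for the most similar pattern over the 23 arrays, given as a description, Id4 was most like Zbtb3 (r = 0.87), Meig1 (0.85), a gene of meiotic and later germ cells, and Wfdc15a (0.84), and these kept r of 0.73 to 0.78 within genotypes. Ret was most like Tap1 (0.90) and Tap2 (0.88), the peptide transporter of antigen presentation, and Rims3 (0.86). Within genotypes Tap1 had only 0.29 and Tap2 0.38, so this likeness lay mainly between genotypes. Utf1 was most like Abcf2 (0.87), Plbd1 (0.85) and Tpgs2 (0.85), with -0.02 within genotypes for Plbd1. Lhx1 was most like Cracdl (0.84), Tppp (0.84) and Trib3 (0.83), and Zbtb16 like Cadps2 (0.82), Tuft1 (0.80) and Dclk2 (0.79). Bcl6b was most like Ntrk3 (0.82), Etv5 like Vps37b (0.79) and Gem (0.79), while for Gfra1 the closest genes, Gng10 and Wwc1, reached 0.70.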

How the data were processed

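Total RNA of pooled testicular cells was labelled with biotin and hybridised to 23 arrays, per the labels' protocols. The deposited table holds log2 values for 25690 probe sets; how the authors corrected the background and normalised them is not given in the sources used here. Array medians ran from 6.13 to 6.28, and correlations between arrays from 0.974 to 0.996. Depth does not apply to arrays: their number limits the precision.

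Probe sets with 1 platform symbol (20777) gave 19661 genes, the brightest probe set standing for a gene with several, and the dimmest 25% of genes by mean level were not tested. The others were fitted with limma 3.58.1 in R 4.3.3, with 7 genotype means over all arrays, 16 residual degrees of freedom and moderated variances. Differences are the first-named genotype minus the other in log2 units, with the threshold at 0.05 for p adjusted by Benjamini-Hochberg over 14746 genes, and the model was tested on simulated arrays. Correlations used 100000 permutations of the arrays, two-sided, made without regard to genotype. Figures were drawn with matplotlib 3.10.9.

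The rule was to name the 10 genes in every comparison, the 8 tested ones being plotted for all 8, and from each other list up to 4 genes with the smallest p among those called in a comparison, of which the text gives a part; Gdnf, Sos2, Sox10, Yes1 in B6xPWD, and Dusp6, Spry2, Spry4, Etv4, Egr2, Egr3, Pou3f1, Cxcr4, Mycn and Tspan8 on single arrays, were named after their values were seen. The genes and lists were chosen with earlier results of these data known. Some members of the lists were not used here. Replicate numbers showed no clear pairing of the samples over all genotypes. The median correlation of deviations was 0.01 over 57 pairs of arrays with the same number and -0.015 over 114 pairs with different numbers.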

Additional observations from a re-analysis of the deposited data

Results flagged for a closer look

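Ret stood apart on 1 array. B6xBALB/C replicate 6 read 8.10, while the other 5 arrays of that genotype read 7.79 to 7.87, a gap to the next array that exceeded Dixon's critical value for 6 samples. The test was made for the 10 genes in that one genotype, 10 tests in all, of which chance would pass about 1 in 20. The same array had the lowest spermatocyte mean of the series, 7.94, and the lowest Id4 of its genotype, 8.79. Ret, Zbtb16 and Utf1 in the laboratory F1s relative to B6 remained called without it.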

How the results depend on the processing

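Ret kept its direction and its call in PWD minus B6 (0.78 to 0.87 over 15 alternatives), in musculus minus domesticus (0.49 to 0.60 over 28) and in the laboratory F1s minus B6 (0.47 to 0.54 over 23), as did Utf1 in the laboratory F1s minus B6 (0.94 to 1.08 over 22). With the intra-subspecific F1s in place of the parents, Utf1 was reversed, at -0.63 in PWDxB6 and -0.58 in B6xPWD. The genes called were then 192 and 351, with 1 stem cell gene in each. That reference holds the laboratory F1s, in which Utf1 was highest. The causes of the changes below were not tested.

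Array weights raised the counts of genes called to 4635 for PWDxB6 minus B6xPWD, 212 and 5968 for PWDxB6 and B6xPWD minus mid-parent, 2 for PWDxPWK minus PWD, 1618 for B6xBALB/C minus BALB/CxB6 and 9601 for the F-test, and lowered that for the laboratory F1s to 442. Stem cell genes called were then 2 (Id4 and Gfra1) between the hybrids, 1 (Id4) in B6xPWD minus mid-parent and 1 (Id4) between the laboratory F1s. With only the groups compared fitted, the counts were 207 between the hybrids, 174 for PWDxB6 minus mid-parent, 3 for PWDxPWK minus PWD, 0 for B6xBALB/C minus BALB/CxB6 and 280 for the laboratory F1s. For B6xBALB/C minus BALB/CxB6 the count was 21 with the stricter filter, 30 with quantile normalization and 27 with trended and robust variances, and for PWDxPWK minus PWD it was 2 with no filter. With B6xBALB/C replicates 1 to 3 only, 1275 genes and 1 stem cell gene (Id4) were called between the laboratory F1s and 1679 genes against B6. With replicates 4 to 6 only these were 0 and 213, and stem cell genes called were 3 in musculus minus domesticus and 3 by the F-test, which lost Id4 and Zbtb16. The stricter filter left 3 stem cell genes called in each of these, since it removes Lhx1 and Utf1 from the test. Centring on the autosomal median left 3 in musculus minus domesticus and called 1 (Id4) in B6xPWD minus mid-parent. It also changed the split of higher and lower calls from 46.9% to 24.8% higher between the hybrids, from 53.8% to 69.0% for B6xPWD minus mid-parent and from 81.5% to 68.5% for B6xBALB/C minus BALB/CxB6. With quantile normalization or autosomal centring, the median over all genes moved by less than 0.1 in every comparison.

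With the replicate number as a block, over replicates 1 to 3, genes called were 1044 between the hybrids, 239 for PWDxB6 minus mid-parent, 4 for PWDxPWK minus PWD, 1311 for B6xBALB/C minus BALB/CxB6 and 1713 for the laboratory F1s. Under this replicate block Id4 was called between the hybrids (-0.44), in B6xPWD minus mid-parent (0.33) and between the laboratory F1s (0.52), 1 stem cell gene in each. Over all genotypes the numbers showed no clear pairing. A correlation of deviations above 0.1 was found in 17 of 57 pairs with the same number and 33 of 114 with different numbers. Between PWDxB6 and B6xPWD, same-number pairs had r of 0.03, 0.22 and 0.12, and the others -0.15 to 0.07. Pairing of the hybrid arrays was not tested.

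Leaving out each array in turn gave 54 to 626 genes between the hybrids (54 without PWDxB6 replicate 3), 30 to 87 for PWDxB6 minus mid-parent (30 without PWDxB6 replicate 2), 389 to 2434 for B6xPWD minus mid-parent (389 without B6xPWD replicate 2), 1802 to 2341 for PWD minus B6 (1802 without PWD replicate 2), 3103 to 4617 for musculus minus domesticus, 0 to 1 for PWDxPWK minus PWD, 1 to 1011 for B6xBALB/C minus BALB/CxB6 (1 without BALB/CxB6 replicate 3, 1011 without B6xBALB/C replicate 6), 188 to 1337 for the laboratory F1s (188 without B6 replicate 1, 1337 without B6xBALB/C replicate 6) and 3976 to 6064 by the F-test. Stem cell genes called were then 1 to 3 in PWD minus B6, 3 to 5 in musculus minus domesticus, 0 to 1 between the laboratory F1s, 2 to 3 in the laboratory F1s minus B6 and 4 to 6 by the F-test, and 0 in the other comparisons. By the F-test Zbtb16 was lost without B6 replicate 2 or B6 replicate 3, and Lhx1 without PWD replicate 2, PWD replicate 3 or PWDxPWK replicate 1. The precision is limited by 2 or 3 arrays in most genotypes. Signal over background, and how the probes match the PWD, PWK and BALB/C genomes, were not analysed here. The mean of probe sets and the linear mid-parent moved none of these counts by over 1.5 times.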
